A study of Homo sapiens with 2 samples.

Results

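The genes described are 10 imprinted genes that act on growth, taken as a named list: PEG10, MEST, PEG3, H19, IGF2, MEG3, PHLDA2, CDKN1C, SNRPN and NNAT. Their symbols were matched to the Ensembl identifiers of the count matrix, and 9 of the 10 were matched among its 30796 genes. NNAT was not analysed here. The samples are 2 established human cell lines of triple-negative breast cancer, MDAMB468 and CAL51, with no treatment named in the labels. Each has 1 library made by Drop-seq, which catches single cells in droplets with a barcoded bead. Each molecule carries a unique molecular identifier (UMI), so the counts are counts of 3′ transcript tags and need no correction for transcript length.

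An imprinted gene is transcribed from the copy of 1 parent, and the other copy is kept silent by DNA methylation laid down in the germ line or by what that methylation controls. Many imprinted genes sit in clusters around a shared control region, and the copies inherited from the father tend to favour growth while those from the mother tend to restrain it. In tumour cell lines this state is often lost or altered, and the counts here cannot tell the parental copies apart.

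MDAMB468 was represented by 306 barcodes with 5501900 UMIs (median 10016.5, range 2501 to 134213). Of the 1377 CAL51 barcodes, 31 had a sequence that also occurred in MDAMB468, and they were left out, which left 1346 barcodes with 16223444 UMIs (median 8635, range 2506 to 113702). Another 64 barcodes of MDAMB468 and 7 of CAL51, here called satellites, differed by 1 base from a much deeper barcode (5 times the UMIs or more) within their line. They were kept, and no member's difference changed sign without them. Levels are in CPM, a gene's UMIs per 1000000 UMIs of the line. Every interval given is exact, at 95%, and reflects counting error alone; a range in parentheses after a level or ratio is its interval. With 1 library per line there is no replicate check and no test between the lines. Of 9 epithelial markers, 7 were higher in MDAMB468, 6 of them by at least 4-fold in CPM + 1 (CDH1, KRT5, KRT7, KRT19, CLDN4 and CLDN7). The other 3, EPCAM, KRT8 and KRT18, were not called. In CAL51, KRT5, KRT7 (0 UMIs each) and CDH1 (7 UMIs) were at or near 0, and EPCAM was at 283 CPM. The 9 markers summed to 5908 CPM in MDAMB468 and 2793 CPM in CAL51. Of 8 mesenchymal markers, 4 were called higher in CAL51 (CDH2, ZEB1, COL1A2 and COL3A1, with 0 or 1 UMIs each in MDAMB468) and 4 were not called, among them VIM at 316 and 332 CPM and COL1A1 with 22 and 11 UMIs. Of the 3 receptors that define the triple-negative class, ESR1 and PGR had at most 3 UMIs in either line and ERBB2 had 39 in MDAMB468 and 262 in CAL51. The 4 immune markers found summed to 1.09 CPM in MDAMB468 and 0.74 in CAL51, and the 4 endothelial ones to 19.6 and 0.493, of which KDR gave 18.5 in MDAMB468.

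The lines expressed different members of the list. MDAMB468 held PHLDA2 and MEST, which had 2 and 13 UMIs in CAL51, while CAL51 held SNRPN, not detected in MDAMB468, and a trace of IGF2 and H19. PEG10 was the member with the highest count in both lines and was 3.56-fold higher in CAL51. CDKN1C, PEG3 and MEG3 had between 0 and 8 UMIs in each line. A gene was called different at an absolute log2 difference in CPM + 1 of at least 2 among genes with at least 20 UMIs over both lines. Of the 6 members that reached 20 UMIs, 2 were called higher in MDAMB468 and 2 higher in CAL51, where 13.2% of the 15347 genes so measured were called, 7.38% higher in MDAMB468 and 5.84% higher in CAL51. The log2 differences of the 6 members ran both ways, from -6.38 for SNRPN to 7.46 for PHLDA2. Their median was -1.85, and that of all these genes was -0.13.

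**Figure D1:**
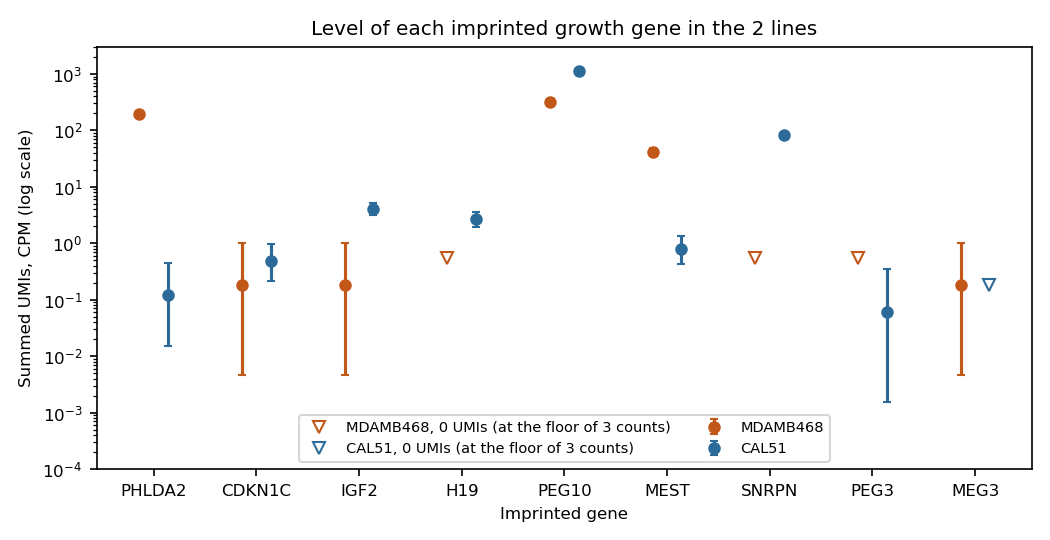
Level of the 9 matched members in each line, in CPM on a log axis, with 95% Poisson intervals as bars; open triangles stand at 3 counts for a gene with 0 UMIs. PHLDA2 and MEST sit higher in MDAMB468, SNRPN and PEG10 higher in CAL51, and PEG3 and MEG3 near the floor in both.

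PHLDA2 and CDKN1C lie close together in an imprinted cluster on chromosome 11 and are expressed from the maternal copy. PHLDA2, a small pleckstrin-homology protein that restrains growth of the placenta (ENSG00000181649; GRCh38, chromosome 11, 2928273 to 2929455), was expressed in MDAMB468. Its 1086 UMIs in MDAMB468 made 197 CPM (186 to 209), against 2 UMIs and 0.123 CPM in CAL51 (0.0149 to 0.445). The ratio of MDAMB468 to CAL51 was 1601, with an interval of 442 to 13238, the log2 difference being 7.46. The 31 shared barcodes decide the size of this ratio: they carried a further 68 PHLDA2 UMIs under the CAL51 prefix, and with them CAL51 stood at 4.28 CPM and the ratio fell to 46.1. With every barcode thinned to 2500 UMIs, 108 of 306 MDAMB468 barcodes (35.3%, interval 29.9% to 40.9%) and 1 of 1346 CAL51 barcodes (0.0743%, interval 0.00188% to 0.413%) held a PHLDA2 UMI. The 1 CAL51 barcode is no more than the limit that a count of 0 would allow there (0.223%). With the shared barcodes kept, the CAL51 share was 1.53% (21 of 1377).

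CDKN1C, an inhibitor of cyclin-dependent kinases, was nearly silent in both lines (ENSG00000129757; chromosome 11, 2883213 to 2885773). It had 1 UMI in MDAMB468 (0.182 CPM) and 8 in CAL51 (0.493 CPM, interval 0.213 to 0.972), each in a different barcode. The ratio of CAL51 to MDAMB468, 2.71 with an interval of 0.364 to 120, gives no direction at this depth, and the log2 difference of -0.34 turned to 0.06 when barcodes were weighted equally. Its 2 relatives were expressed in both lines. CDKN1B was at 29.4 CPM in MDAMB468 and 121 CPM in CAL51, a ratio of 4.10 in favour of CAL51 (3.49 to 4.84), and its log2 difference was just short of a call. CDKN1A, the p53 target of the family, had 110 and 511 UMIs, a CPM 1.58-fold higher in CAL51 (1.28 to 1.95).

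Within 500 kb of PHLDA2, 8 genes, PHLDA2 included, reached 20 UMIs, of which 3 were called higher in MDAMB468, 1 higher in CAL51 and 4 were not called. Among all genes, 7.38% were called higher in MDAMB468 and 5.84% higher in CAL51. SLC22A18, a membrane transporter expressed from the maternal copy beside PHLDA2, had 198 UMIs in MDAMB468 (36.0 CPM) and 13 in CAL51 (0.801 CPM), a ratio of 44.9 (interval 25.7 to 85.8). SLC22A18AS, which starts near it on the other strand, was also called, with 127 UMIs in MDAMB468 and 3 in CAL51. The strand setting of the counting is not known, so reads of these 2 genes may not be told apart. KCNQ1OT1, the long noncoding RNA read from the paternal copy that silences its neighbours in cis, went the other way with 5 UMIs in MDAMB468 (0.909 CPM) and 572 in CAL51 (35.3 CPM), 38.8-fold higher in CAL51 (interval 16.5 to 120). At 2500 UMIs, KCNQ1OT1 was found in 1 of 306 MDAMB468 barcodes and in 125 of 1346 CAL51 barcodes (9.29%, interval 7.79% to 11.0%). The flanking NAP1L4 (834 and 3987 UMIs) and CARS1 (338 and 604 UMIs) had log2 differences of -0.69 and 0.71 and were not called. ASCL2, a transcription factor of the placenta at this cluster, had 19 UMIs in MDAMB468 and 0 in CAL51.

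Among relatives of PHLDA2, the difference was seen in PHLDA2 alone at the called size. PHLDA1 was at 44.9 CPM in MDAMB468 and 106 CPM in CAL51, 2.36-fold higher in CAL51 (interval 2.06 to 2.70). PHLDA3 was at 9.81 and 6.72 CPM, a log2 difference of 0.49.

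IGF2 and H19 form the neighbouring cluster on chromosome 11 and share enhancers. IGF2, the fetal insulin-like growth factor, is expressed from the paternal copy (ENSG00000167244; chromosome 11, 2129112 to 2149603), and H19, a noncoding RNA, from the maternal copy (ENSG00000130600; chromosome 11, 1995176 to 2001470). IGF2 had 1 UMI in MDAMB468 and 66 in CAL51 (4.07 CPM, interval 3.15 to 5.18), a ratio of 22.4 in favour of CAL51 with an interval of 3.88 to 897. H19 had 0 UMIs in MDAMB468 and 43 in CAL51 (2.65 CPM, interval 1.92 to 3.57), so it was at least 4.86-fold higher in CAL51 against a floor of 3 counts per library. Its log2 difference of -1.87 fell just short of a call and that of IGF2, -2.10, just passed it. Both calls turned on the settings: with a pseudocount of 10 CPM the IGF2 difference was -0.47, and with one of 0.1 CPM the H19 difference was -4.78. Without mitochondrial and ribosomal protein genes in the totals, H19 was at -2.07. IGF2 overlaps INS-IGF2 and a second annotated IGF2 gene on the same strand, so its count depends on how such reads were assigned.

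Both transcripts were at so low a level in CAL51 that most barcodes would hold no UMI at this depth, so the number of positive barcodes does not give the number of expressing cells. IGF2 was found in 46 of 1346 barcodes with up to 6 UMIs, and H19 in 34 with up to 5. An IGF2 UMI was present in 6 of the 34 H19-positive barcodes (17.6%, interval 6.76% to 34.5%) and in 40 of the 1312 others (3.05%, interval 2.19% to 4.13%). The H19-positive barcodes were deeper (median 17857 UMIs against 8499), and the part of depth in this overlap was measured only in so far as thinning to 2500 UMIs left 1 of 9 (11.1%, interval 0.281% to 48.2%) against 11 of 1337 (0.823%, interval 0.411% to 1.47%), intervals that overlap.

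Pairs of genes from 1 cluster were compared in the same way at 2500 UMIs. In CAL51, SNHG14 was found in 30 of 239 SNRPN-positive barcodes (12.6%, interval 8.63% to 17.4%) and in 99 of 1107 others (8.94%, interval 7.33% to 10.8%). In MDAMB468, SLC22A18 was found in 7 of 108 PHLDA2-positive barcodes (6.48%, interval 2.65% to 12.9%) and in 17 of 198 others (8.59%, interval 5.08% to 13.4%). The intervals overlapped in both pairs.

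The growth factor's receptors and binding proteins were compared next. Of 20 genes of the IGF axis listed, 14 reached 20 UMIs; 3 were called higher in MDAMB468 and 3 higher in CAL51, and their median log2 difference was -0.42. IGF1R, the receptor that signals for IGF2, was at 13.4 CPM in MDAMB468 and 25.2 in CAL51, and IGF2R, which clears IGF2 from the cell surface, was at 37.8 and 37.0 CPM (ratio 1.02, interval 0.867 to 1.20). Over all genes the shares called were 7.38% and 5.84%. Among the binding proteins, IGFBP5 had 466 UMIs in MDAMB468 and 0 in CAL51 (at least 458-fold higher), IGFBP2 113 and 22, and IGFBP4 232 and 64. IGFBP3, at 73.1 and 217 CPM, and IGFBP6, with 33 and 29 UMIs, were not called. IGFBP7 went the other way, with 5 UMIs in MDAMB468 and 4545 in CAL51 (308-fold, interval 132 to 950). The fetal RNA-binding proteins that bind IGF2 mRNA were also higher in CAL51: IGF2BP1 had 0 and 1514 UMIs (at least 171-fold higher) and IGF2BP2 145 and 3869 (9.05-fold, interval 7.67 to 10.8). IGF2BP3, at 102 and 282 CPM, was not called (log2 difference -1.45).

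PEG10 derives from a retrotransposon and encodes proteins that keep its Gag and protease parts, and it is needed for the placenta to form. It is expressed from the paternal copy (ENSG00000242265; chromosome 7, 94656325 to 94669695). In MDAMB468 its 1716 UMIs made 312 CPM, with an interval of 297 to 327. In CAL51 its 18003 UMIs made 1110 CPM (1094 to 1126), and the CAL51 level was 3.56 times that of MDAMB468 (3.39 to 3.74). Its log2 difference of -1.83 lay between -1.96 and -1.72 in every setting run, and it was therefore not called in any of them at 2. The median barcode held 283 CPM in MDAMB468 (quartiles 156 and 416) and 950 CPM in CAL51 (quartiles 573 and 1472), so the middle ranges of the lines did not overlap. At 2500 UMIs, 52.0% of MDAMB468 barcodes (interval 46.2% to 57.7%) and 87.7% of CAL51 barcodes (interval 85.8% to 89.4%) were positive.

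SGCE starts back to back with PEG10 from the same imprinted region and encodes a sarcoglycan. The first bases of the 2 genes overlap on opposite strands. SGCE differed in the same direction as PEG10, with 286 UMIs in MDAMB468 (52.0 CPM) and 2232 in CAL51 (138 CPM), a CPM ratio of 2.65 (2.34 to 3.0). There were 6.0 PEG10 UMIs for each SGCE UMI in MDAMB468 (interval 5.29 to 6.82) and 8.07 in CAL51 (interval 7.72 to 8.43), and these intervals do not overlap. Genes within 500 kb of PEG10 were also higher in CAL51: PPP1R9A, itself on the imprinted lists, 2.90-fold (interval 2.45 to 3.44) and CASD1 5.19-fold (interval 3.89 to 7.08). PON2, which starts more than 500 kb from PEG10, was 5.27-fold higher (interval 4.61 to 6.04). CASD1 and PON2 were called. Of the 5 genes with at least 20 UMIs within 500 kb of PEG10, PEG10 included, 0 were called higher in MDAMB468 and 2 higher in CAL51. Over all genes 7.38% and 5.84% were. Of the other genes derived from retrotransposons, 6 reached 20 UMIs and none was called, where 13.2% of all genes were called. RTL8A was at 103 and 73.0 CPM and RTL8C, a close copy, at 82.9 and 70.9 CPM. Reads of near-identical copies may have been split between them.

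MEST, an enzyme of the hydrolase fold that is expressed from the paternal copy in mesoderm (ENSG00000106484; chromosome 7, 130486171 to 130506465), was the other member that marked MDAMB468. Its 232 UMIs there made 42.2 CPM (36.9 to 48.0), and its 13 UMIs in CAL51 made 0.801 CPM (0.427 to 1.37). The level in MDAMB468 was 52.6 times that in CAL51 (30.2 to 100.3), or 46.0 times with the shared barcodes kept. At 2500 UMIs, 33 of 306 MDAMB468 barcodes (10.8%, interval 7.54% to 14.8%) and 3 of 1346 CAL51 barcodes (0.223%, interval 0.046% to 0.65%) were positive, and in CAL51 no barcode had more than 1 UMI. The 3′ ends of MEST and COPG2 overlap on opposite strands, and the strand setting of the counting is not known from the labels; COPG2 had 86 and 379 UMIs and was not called. The antisense MESTIT1 had 16 and 2 UMIs. CPA4, a carboxypeptidase gene in the same cluster, was also higher in MDAMB468, at 345 and 3 UMIs (ratio 339, interval 115 to 1652, or 147 with the shared barcodes kept), and its neighbour CPA5 had 44 and 5.

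An intron of MEST carries the microRNA miR-335, whose mature arms (chromosome 7, 130496126 to 130496148 and 130496162 to 130496183) are shown because they share the host's transcript; the 3′ tags do not measure them. The capitals mark the seed, bases 2 to 8, in the RefSeq sequences (GRCh38.p14).
hsa-miR-335-5p: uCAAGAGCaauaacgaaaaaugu
hsa-miR-335-3p: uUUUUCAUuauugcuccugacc

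SNRPN was detected in CAL51 and not in MDAMB468. It encodes a tissue-restricted copy of the spliceosomal core protein SmB, is expressed from the paternal copy of chromosome 15 and belongs to the region lost in Prader-Willi syndrome (ENSG00000128739; chromosome 15, 24823637 to 24978723). No SNRPN UMI was found in the 5501900 of MDAMB468, where the floor of 3 counts is 0.545 CPM. CAL51 held 1337 UMIs (82.4 CPM, interval 78.1 to 87.0), at least 151-fold higher. They were spread over 671 of the 1346 CAL51 barcodes, 361 of which had 1 UMI, and no barcode had more than 13. At 2500 UMIs, 239 CAL51 barcodes (17.8%, interval 15.7% to 19.9%) and 0 of 306 MDAMB468 barcodes, which by the limit of 3 counts allows a share with a UMI of up to 0.98%, were positive.

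The transcripts that run on from SNRPN were also higher in CAL51. SNURF, read from the same start, had 0 and 44 UMIs, and since the 2 genes share exons the split between them is uncertain. SNHG14, the long host RNA of the snoRNA clusters downstream, had 11 UMIs in MDAMB468 and 613 in CAL51 (37.8 CPM), 18.9-fold higher in CAL51 (interval 10.5 to 38.1). UBE3A, the ubiquitin ligase at the far end that the brain reads from the maternal copy, was expressed in both lines, at 74.7 and 127 CPM, a log2 difference of -0.76. MKRN3, a paternally expressed gene upstream that has been tied to the timing of puberty, went against SNRPN, with 44 UMIs in MDAMB468 and 3 in CAL51 (ratio 43.2, interval 13.9 to 218).

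The other Sm core proteins were present in both lines. SNRPB, which encodes SmB itself, was at 563 CPM in MDAMB468 and 546 CPM in CAL51 (ratio 1.03, interval 0.99 to 1.08). In CAL51 there were 0.151 SNRPN UMIs for each SNRPB UMI (interval 0.142 to 0.160). Of the 8 genes of this core, SNRPN included, SNRPN was the 1 that was called, a share near the 13.2% called over all genes.

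The promoters of these 2 paternally expressed genes are shown because their transcripts were nearly limited to a line. RefSeq start windows (GRCh38.p14, 250 bases before a start to 50 after it) were held for 4 members, MEST, SNRPN, H19 and MEG3, and the window richest in CpG was taken for each; the 250 bases before the start are printed. For SNRPN this start lies on the plus strand at chr15:24954737-24954986, next to the annotated start of SNURF, and for MEST on the plus strand at chr7:130491835-130492084, a stretch that holds another listed MEST start near its end. Capitals mark TGCCGC or its reverse complement GCGGCA, the letters read by the imprint-keeping factor ZFP57 when methylated.
SNRPN promoter: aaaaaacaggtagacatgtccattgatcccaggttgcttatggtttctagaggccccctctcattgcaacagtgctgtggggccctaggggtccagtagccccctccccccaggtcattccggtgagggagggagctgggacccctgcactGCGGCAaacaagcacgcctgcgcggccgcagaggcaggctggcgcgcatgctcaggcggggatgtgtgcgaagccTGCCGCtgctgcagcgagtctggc
MEST promoter: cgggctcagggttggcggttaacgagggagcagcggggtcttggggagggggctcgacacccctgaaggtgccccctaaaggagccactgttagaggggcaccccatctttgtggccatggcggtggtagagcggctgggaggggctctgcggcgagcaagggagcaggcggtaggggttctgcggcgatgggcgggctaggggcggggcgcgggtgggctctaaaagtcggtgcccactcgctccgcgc
The full windows hold 18 CpG for SNRPN and 25 for MEST, having been taken as the richest. The other windows hold 2 to 11 for SNRPN and 13 to 22 for MEST. The motif occurs 2 times in the SNRPN stretch and 0 times in the MEST stretch, whose 3 matches end after the start. Of all 35116 windows, 16.7% hold the motif on either strand. The matches describe the letters and were not tied to binding or methylation in these cells.

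**Figure D2:**
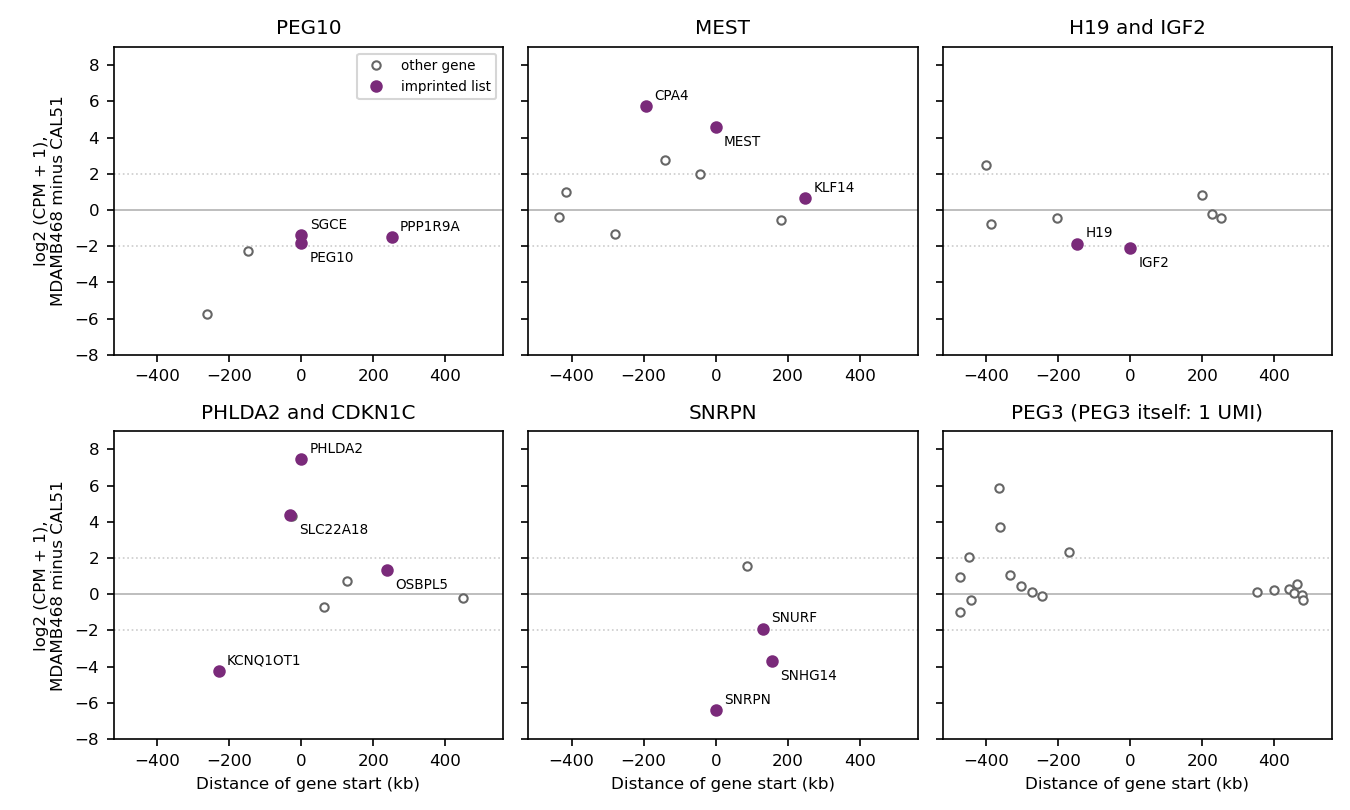
Log2 difference in CPM + 1, MDAMB468 minus CAL51, of genes with at least 20 UMIs whose start lies within 500 kb of a member (horizontal axis, distance from PEG10, MEST, IGF2, PHLDA2, SNRPN or PEG3 in kb); filled points are on the imprinted lists and dotted lines mark a difference of 2 either way. PHLDA2 and SLC22A18 lie above 4 while KCNQ1OT1 of the same cluster lies at -4.25, and SNRPN, SNURF and SNHG14 all lie below 0.

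PEG3 and MEG3 were not detectable beyond single UMIs. PEG3, a paternally expressed zinc-finger factor (ENSG00000198300; chromosome 19, 56810077 to 56840728), had 0 UMIs in MDAMB468 and 1 in CAL51. MEG3, a maternally expressed noncoding RNA that can raise p53 (ENSG00000214548; chromosome 14, 100779410 to 100861031), had 1 and 0. Further transcripts of their clusters stayed under 20 UMIs, with 0 and 1 UMIs for USP29, 1 and 0 for RTL1, and 2 and 8 for MEG8. No fold is given for these genes.

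Other imprinted genes were called in both directions. Of 44 listed, 32 were in the matrix and 24 reached 20 UMIs. Of these, 5 were called higher in MDAMB468, 4 higher in CAL51 and 15 were not called, with a median log2 difference of -0.46. All genes so measured had a median of -0.13, with 7.38% called higher in MDAMB468 and 5.84% higher in CAL51. Among the paternally expressed ones, MKRN3, ZDBF2 (63 and 20 UMIs) and FAM50B (172 and 83 UMIs) were called higher in MDAMB468, and SNHG14 and KCNQ1OT1 higher in CAL51. Among those listed as maternally expressed, SLC22A18 and CPA4 were called higher in MDAMB468, and ZNF597 (0 and 81 UMIs, at least 9.16-fold) and the homeobox gene DLX5 (4 and 1296 UMIs, 110-fold, interval 42.8 to 404) higher in CAL51. GNAS, which encodes the stimulatory G protein, was abundant in both, at 382 and 559 CPM. PLAGL1, a zinc-finger factor described as a regulator of several imprinted genes, was at 7.27 and 9.74 CPM, a ratio whose interval (0.942 to 1.95 in favour of CAL51) includes equality.

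**Figure D3:**
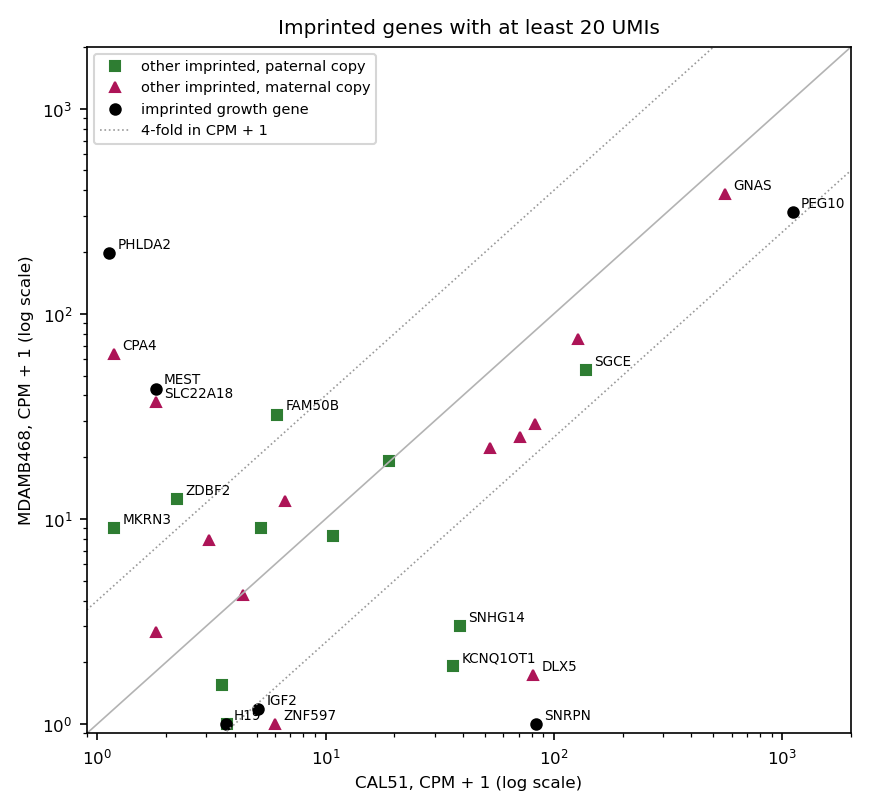
CPM + 1 in CAL51 (horizontal) against MDAMB468 (vertical), both on log axes, for members and other imprinted genes with at least 20 UMIs; dotted lines mark 4-fold. GNAS and PEG10 lie high on both axes, while PHLDA2, CPA4, MEST and SLC22A18 hug the left edge and SNRPN and DLX5 the lower edge.

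Of the 14 enzymes and factors listed as keeping imprints, 13 were in the matrix. Of the 12 with at least 20 UMIs, 0 were called, where 13.2% of all genes were called, and the median log2 difference was -0.07. DNMT1, the maintenance methyltransferase, was at 1022 CPM in MDAMB468 and 364 CPM in CAL51, 2.81-fold higher in MDAMB468 (interval 2.71 to 2.92). DNMT3A, which sets new methylation, had 275 and 296 UMIs, 2.74-fold higher in MDAMB468 per total UMIs (2.32 to 3.24). ZFP57 had 14 UMIs in MDAMB468 and 1 in CAL51, below the minimum for a call, and ZNF445, a factor with a like role, was at 7.82 and 21.8 CPM.

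**Figure D4:**
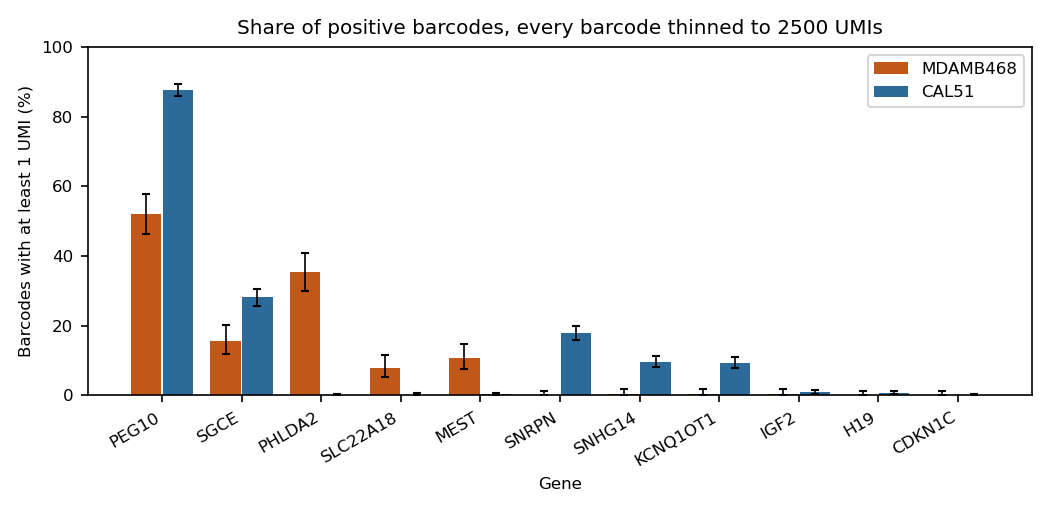
Share of barcodes with at least 1 UMI (vertical, %) after every barcode was thinned to 2500 UMIs, with exact binomial 95% intervals, for members and genes of their clusters. PEG10 was found in 52.0% of MDAMB468 and 87.7% of CAL51 barcodes, while PHLDA2, SLC22A18 and MEST were near 0 in CAL51 and SNRPN, SNHG14 and KCNQ1OT1 near 0 in MDAMB468.

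Within each line the members were followed over clusters of barcodes found without any imprinted gene of the lists. In CAL51, PEG10 ranged over the 5 clusters of at least 20 barcodes from 743 CPM (interval 711 to 776) in cluster 3, led by CD24, COL1A2, ADAMTS8 and PTGDS, to 1439 CPM (interval 1396 to 1482) in cluster 1, led by NTS and COL2A1, a ratio of 1.94. Cluster 4, led by the mitotic genes CENPE, PLK1 and AURKA, held 1035 CPM. SNRPN ran from 70.9 CPM in cluster 3 (61.3 to 81.5) to 92.6 CPM in cluster 1 (82.1 to 104), a ratio of 1.31. At a finer clustering (resolution 1.0), the ratio of highest to lowest cluster was 1.95 for SNRPN and 1.92 for PEG10, and at a coarser one (0.3) 1.13 and 1.37. IGF2 had 20 of its 66 UMIs in cluster 3 (7.27 CPM, interval 4.44 to 11.2) and 3 in cluster 2 (1.26 CPM, interval 0.26 to 3.69), but this ratio of 5.75 was 2.46 and 12.6 at the coarser and finer clustering and 2.99 without satellites. The 3 IGF2 UMIs of cluster 2 are at the floor of 3 counts. These values are descriptions of 1 library. Median depth differed between clusters, from 6720 UMIs in cluster 2 to 11712 in cluster 0, with 7465 in cluster 3 and 8109.5 in cluster 1.

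In MDAMB468, PEG10 stood between 265 and 335 CPM in the 4 clusters, with intervals that overlapped. PHLDA2 was lowest in cluster 2, led by mitotic genes including CENPE, TOP2A and PLK1 (161 CPM, interval 144 to 180), with 173 CPM (134 to 220) in cluster 3, led by MX1 and IFI6. It was at 220 CPM (197 to 244) in cluster 0, led by ADAMTS1 and H2BC5, and at 223 CPM (201 to 247) in cluster 1, led by the interferon-related genes IFIT2, IFNL1 and IFNB1. MEST was highest in cluster 2 (51.6 CPM, interval 41.9 to 62.9) and lowest in cluster 3 (26.2 CPM, interval 12.6 to 48.2), intervals that overlap, and the ratio of 1.97 was 1.09 at the coarser clustering. For PHLDA2 the ratio of highest to lowest cluster was 1.39, and 1.20 at the coarser clustering. Cluster 1 held 26 of the 64 satellites and cluster 2 held 14. With satellites left out before clustering, 3 clusters had at least 20 barcodes, and the ratio was 1.22 for PHLDA2 and 1.81 for MEST. The median depth was 11208.5 UMIs in cluster 1 and 21378 in cluster 2, and the part of depth in these differences was not tested.

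**Figure D5:**
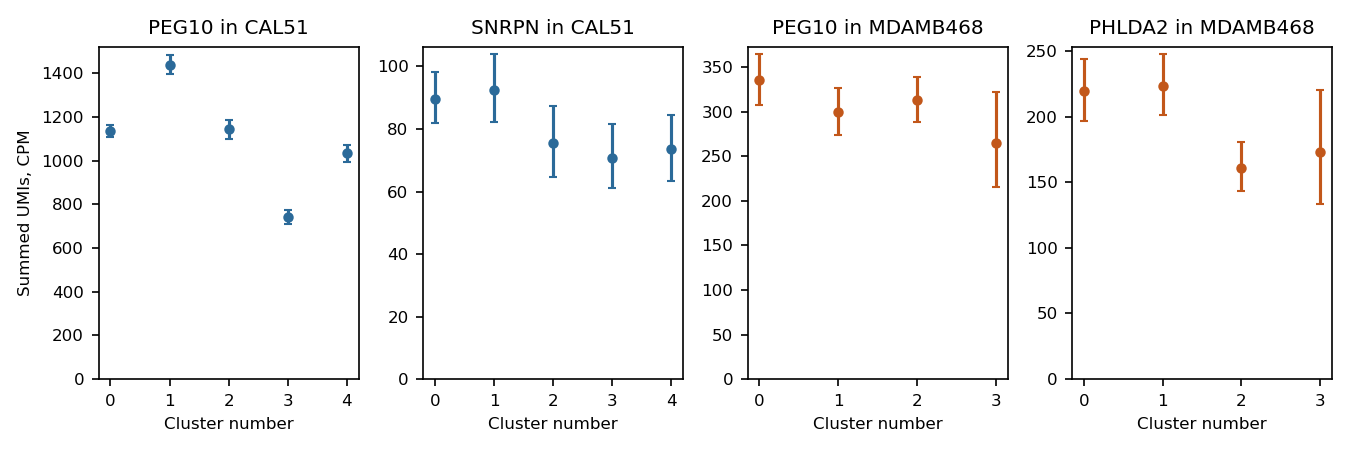
Level in CPM (vertical, from 0) of PEG10 and SNRPN in CAL51 and of PEG10 and PHLDA2 in MDAMB468 by cluster number (horizontal), with 95% Poisson intervals. PEG10 in CAL51 runs from 743 to 1439 CPM, while its 4 values in MDAMB468 lie between 265 and 335 CPM.

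The spread of counts between barcodes was read from Fano factors (variance over mean) at 2500 UMIs, where counting alone gives a value near 1. PEG10 had 1.93 in CAL51 at a mean of 2.81 UMIs and 1.18 in MDAMB468 at a mean of 0.758. PHLDA2 had 1.32 in MDAMB468 at a mean of 0.497 and 1.04 at a mean of 0.409 without the 64 satellites, and SNRPN 1.11 in CAL51 at a mean of 0.206. Over barcodes no gene followed a member closely. In CAL51 the highest Pearson correlation was 0.17 for PEG10, with MYH10, and 0.11 for SNRPN over 1346 barcodes and 6402 genes. In MDAMB468, over 306 barcodes and 6001 genes, the top 3 genes were MKNK1, GTF2E2 and CDH1 for PEG10 (0.23 to 0.22) and TIAL1, WNT6 and MYH9 for MEST (0.24 to 0.22). For PHLDA2 they were JMJD6 (0.24), DPM2 and MTM1 (0.20 each), and without satellites DPM2 and MTM1 were not among the top 3. Without satellites CDH1 also left the top 3 of PEG10, and MEST, in 8.68% of barcodes, was not ranked. Correlations this weak in sparse counts name no partner.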

How the data were processed

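UMI counts of 3′ tags were deposited by the authors as 1 matrix of 30796 genes and 1683 barcodes, with no normalisation visible in the values; STARsolo is named in the submitters' processing notes. For its version, build, annotation and strand setting: not given in the sources used here. Barcode prefixes gave the line. Identifiers were given symbols by a gene name table (30730 matched), and positions from GENCODE release 29 on GRCh38 (29416 matched).

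UMI counts were summed per line and scaled to CPM. Log2 differences are of CPM + 1. Poisson and Clopper-Pearson intervals, and ratios conditional on the total count, are exact. A gene with 0 UMIs was bounded against 3 counts per library. Barcodes were thinned to 2500 UMIs (seed 1), and no barcode was lower than 2501. Clusters used scanpy 1.11.5 and leidenalg 0.10.2 at resolution 0.5, with numpy 2.4.6 and scipy 1.17.1 on Python 3.11.15; edgeR 4.0.16 gave TMM factors. Doublets were not sought. The calculations were tested on simulated data.

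Members and lists were chosen with earlier results of these data known, and the 500 kb windows, the paired detection of genes and the promoter motif were added with the data in view. Of the listed genes, those named have at least 20 UMIs and an absolute log2 difference of at least 2 (at most the 4 largest in each direction), besides all members, the families compared, and, for each member in at least 10% of a line's barcodes, the 3 genes of highest correlation where it is at least 0.2. Other names were chosen after their values were seen, including genes named for their role and MYH10, which is below that limit.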

Additional observations from a re-analysis of the deposited data

Results flagged for a closer look

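PHLDA2 was present in barcodes left out of the main values and used only where the text says that they were kept. The 31 CAL51-labelled barcodes whose sequence also occurred in MDAMB468 held 68 PHLDA2 UMIs, or 503 CPM (interval 390 to 637), above the 0.123 CPM of the other CAL51 barcodes and the 197 CPM of MDAMB468. The same barcodes held PEG10 at 547 CPM (interval 430 to 687), between the 312 CPM of MDAMB468 and the 1110 CPM of CAL51, and 3 SNRPN UMIs (22.2 CPM, interval 4.57 to 64.8). The 64 satellites of MDAMB468 were also above their line in PHLDA2, with 80 of its 1086 UMIs among 215868 of the 5501900 UMIs. Median depth was 3140 UMIs in these satellites and 3638 in the 31 barcodes. The part of depth in these levels was not tested.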

How the results depend on the processing

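No paired analysis was possible because each line has 1 library. No direction of a member with at least 20 UMIs changed in the 7 alternative settings. Counts of calls moved most with the pseudocount and the limits. Totals without mitochondrial and ribosomal protein genes put H19 past the limit (-2.07), so that 3 members were called higher in CAL51. In the same setting 5 other imprinted genes were called higher in CAL51 (4 as reported). At a pseudocount of 0.1 CPM, 1481 genes of all were called higher in CAL51 (896 as reported). At 10 CPM, 286 of all genes were called higher in MDAMB468 (1132 as reported) and 266 higher in CAL51, 1 member higher in CAL51, and 2 other imprinted genes higher in each line. With at least 100 UMIs, 564 of all genes and 3 other imprinted genes were called higher in MDAMB468 and 1 member higher in CAL51. At an absolute log2 difference of at least 1, 2429 and 2847 of all genes were called higher in MDAMB468 and CAL51, and 4 members and 10 other imprinted genes higher in CAL51. TMM factors shifted the median log2 difference of all genes by -0.12 and that of PEG10 to -1.96. The log2 difference of PHLDA2 ran from 4.36 to 9.79, that of MEST from 2.27 to 5.55 and that of SNRPN from -9.69 to -3.21. Leaving out barcodes 1 base from a deeper one kept the PEG10 share at 52.1% in MDAMB468, while that of MEST was 8.68%. With another seed for the thinning, the PHLDA2 share in MDAMB468 was 41.8%, above its interval in the main setting, and that of MEST was 8.17%. Both MEST values lie below the 10% used to choose members for correlation. Depth limits CDKN1C, PEG3 and MEG3, for which a few UMIs give no order.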

Other observations

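Genes around the nearly silent PEG3 were read by position, and those named here were picked after their values were seen. Of 18 genes with at least 20 UMIs within 500 kb, 4 were called higher in MDAMB468 and 0 higher in CAL51, where 7.38% of all genes were called higher in MDAMB468. ZNF667-AS1 had 351 UMIs in MDAMB468 and 2 in CAL51, and its partner ZNF667, a zinc-finger gene that starts beside it on the other strand, had 72 and 1. The strand setting of the counting is not known, so reads of this pair may not be told apart. ZNF835 had 22 and 0, and ZNF582 23 and 4. The other zinc-finger genes of this stretch, such as ZFP28 (41 and 85 UMIs) and ZNF264 (36 and 95 UMIs), were not called.

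COL1A2, a fibrillar collagen gene that lies 262 kb before PEG10, had 0 UMIs in MDAMB468 and 863 in CAL51, so the lines differed more there than at PEG10 itself. Near H19 and IGF2, IFITM10 had 46 UMIs in MDAMB468 and 11 in CAL51 (log2 difference 2.48), against the direction of IGF2, while CTSD and MRPL23 were not called. Of the 8 genes with at least 20 UMIs within 500 kb of IGF2, members included, 1 was called higher in each line. Around MEST 3 of 9 were called higher in MDAMB468 and 0 higher in CAL51. Around SNRPN these counts were 0 and 2 of 4, and around MEG3 0 and 0 of 4. Over all genes 7.38% and 5.84% were called.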
